A study of Acyrthosiphon pisum with 15 samples.

Results

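Winged and wingless asexual females of the pea aphid, Acyrthosiphon pisum, were compared by RNA sequencing of whole bodies. The comparison used 6 of the 15 libraries of the study, chosen by the morph given in the labels, with 3 winged and 3 wingless females. Each group held 1 library per clone, the clones being F1, I18 and BK11, so a winged and a wingless library of the same clone formed a pair. Per the labels, all 6 libraries came from adults 2 days old, kept at 18 °C under 16 h light and 8 h dark, with 30 aphids pooled in each. Temperature, light and age were therefore shared by both groups, and other rearing conditions, such as crowding, were not compared. The labels name the clones as the biological replicates, so each spread and p-value holds clone differences as well as those of preparation. The other 9 libraries were sexual females, 2 to 6 days old, and winged and wingless males, 2 days old, of the same clones, kept at 15 °C under 13 h light and 11 h dark. They entered the estimate of spread and are described only where they bear on the asexual females.

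Asexual pea aphid females bear live young without mating, and a single clone can produce daughters with or without wings. Crowding and contact with natural enemies are known to raise the share of winged daughters, so that the wing form of asexual females is induced by the environment, whereas that of males is set by genotype. A winged female carries flight muscle and wings and can found colonies on new plants, while a wingless female stays on its plant and is known to reproduce earlier and more. A whole adult asexual female also contains developing embryos and the cells that house its bacterial symbionts. In RNA from whole bodies, fewer cells of a type and less RNA per cell cannot be told apart.

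Recovered reads per library ran from 43309865 to 75066116 in winged and from 28721904 to 69726381 in wingless females, and where a library shows no read, up to 3 reads are allowed, which is worth 1.63 to 5.95 normalised counts depending on the library. Values below are normalised counts, that is, reads divided by a size factor of the library and not by gene length. Genes are given by the identifiers of the deposited gene models, because 61 of 20657 identifiers matched the reference gene table and 1 of these carried a gene name. The I18 winged library stood apart in traces of gene models typical of sexual females. Of 13 gene models with at least 10000 normalised counts in every sexual female library and at most 20 in 3 of the male libraries, 0 were at 0 in the I18 winged library, with a median of 372.8. In the other 5 asexual libraries 4 to 7 of the 13 were at 0, and the medians ran from 0 to 0.54. Their summed level in the I18 winged library was 0.391% of that in sexual females, against 0.131% to 0.197% in the other 5. A trace at the median share, 0.272% of the sexual female level, would make up at least 10% of the I18 winged value for 1 of the 922 gene models called higher in winged females. The counts of calls are also given without it. Of the named gene models called, 3 lost their call without it, namely Syt4 (limma adjusted p = 0.057), ACYPI006679-RA (0.056) and ACYPI086947-RA (0.058). Of 39 gene models with at least 1000 in every male library and at most 10 in the F1 and I18 sexual females, 15 to 21 were at 0 in each asexual library, and their summed level was 0.0376% to 0.0576% of that in males.

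In winged females, 922 of 20301 gene models tested were higher and 1384 were lower than in wingless females, which is 4.54% and 6.82% of those tested (limma, Benjamini-Hochberg adjusted p threshold 0.05). The gene models higher in winged females were mostly of moderate abundance. Their median log2 fold change was 1.63, with an interquartile range of 1.14 to 2.37, at a median normalised count of 485.8 over the 6 libraries. Those lower in winged females were more abundant, with a median normalised count of 4628. Their median log2 fold change was −1.30, with an interquartile range of −1.74 to −1.04. The sets were not compared at like level, so these medians do not show which direction held the larger changes. The values of the winged and wingless libraries did not overlap for 897 of the higher and 1353 of the lower gene models, which the calling largely fixes. Over all gene models tested, 14.6% had every winged value above every wingless one and 16.4% had the reverse. A difference of at least 2-fold within each of the 3 clones was seen in 553 of the higher and 712 of the lower ones, and one of at least 4-fold in 166 and 109. Calling favours such differences. Among all 10772 gene models with a mean of at least 100 over the 6 libraries, called or not, 449 were at least 2-fold higher and 980 at least 2-fold lower in all 3 clones. At 4-fold these were 68 and 109, and at 8-fold 11 and 37. The plot of change against level shows the called gene models spread over low and middle levels on the higher side and gathered at high levels on the lower side.

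**Figure D1:**
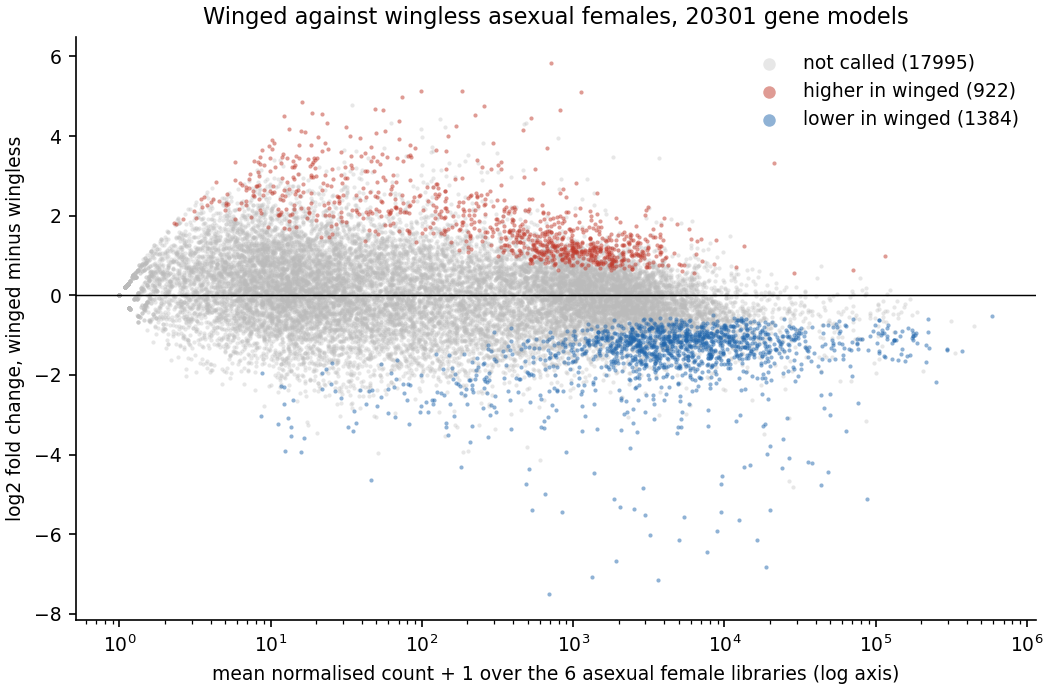
Each point is a gene model, with its mean normalised count + 1 over the 6 asexual female libraries on the horizontal axis, a log axis, and its log2 fold change, winged minus wingless, on the vertical axis; coloured points are the 922 higher and 1384 lower gene models (limma, adjusted p threshold 0.05). The higher calls centre on a normalised count of 485.8 and the lower calls on 4628.

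The number of calls depended on which libraries and which scaling were used. Without the I18 winged library, 434 gene models were higher and 747 lower, of which 402 and 724 were among the 922 and 1384. The counts were 320 and 737 without the F1 winged library, 397 and 669 without the F1 wingless library, and 420 and 747 without the BK11 wingless library. Leaving out a whole clone gave 39 higher and 132 lower without F1, 160 and 558 without I18, and 117 and 297 without BK11. With clone as a block in the fit of 15 libraries, 1068 were higher and 1618 lower, including 880 of the 922 and 1353 of the 1384. The block in a fit of the 6 asexual libraries alone called 1704 and 2899. Higher calls made up 40.0% of all calls, against 51.9% with trimmed mean (TMM) scaling, 54.4% with edgeR on the recovered reads and 90.4% when each library was divided by its own sum. The TMM scaling moved log2 differences up by a median of 0.12, and division by the sum by a median of 0.69. Called in the same direction under all 22 alternatives were 19 higher gene models, with log2 fold changes of 1.62 to 3.36, and 76 lower ones, with −5.38 to −1.28. Those 76 had a median normalised count of 11219, and the 19 had one of 496.3.

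With the deposited scaling, the most abundant transcripts were lower in winged females as a class, a direction that depended in part on the scaling, as given in the next paragraph. The classes were cut on the mean of the same 6 libraries that are compared, so gene models high in wingless or in winged females alone could enter them. Of the 800 gene models with a mean normalised count over 10000 in the 6 libraries, 376 (47.0%) were lower and 6 (0.75%) higher in winged females, with a median log2 fold change of −0.92. The lower and higher counts were 252 and 3 without the I18 winged library, 240 and 2 without the F1 wingless one, and 58 and 0 without clone F1. They were 232 and 1 without clone I18 and 127 and 2 without clone BK11. Between 1000 and 10000, 799 of 5278 were lower and 271 higher, with a median of −0.27. The balance turned below 1000. Between 100 and 1000, 371 of 4694 were higher and 161 lower, and between 10 and 100, 210 of 5485 were higher and 46 lower. The medians of those classes were 0.04 and 0.14.

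**Figure D2:**
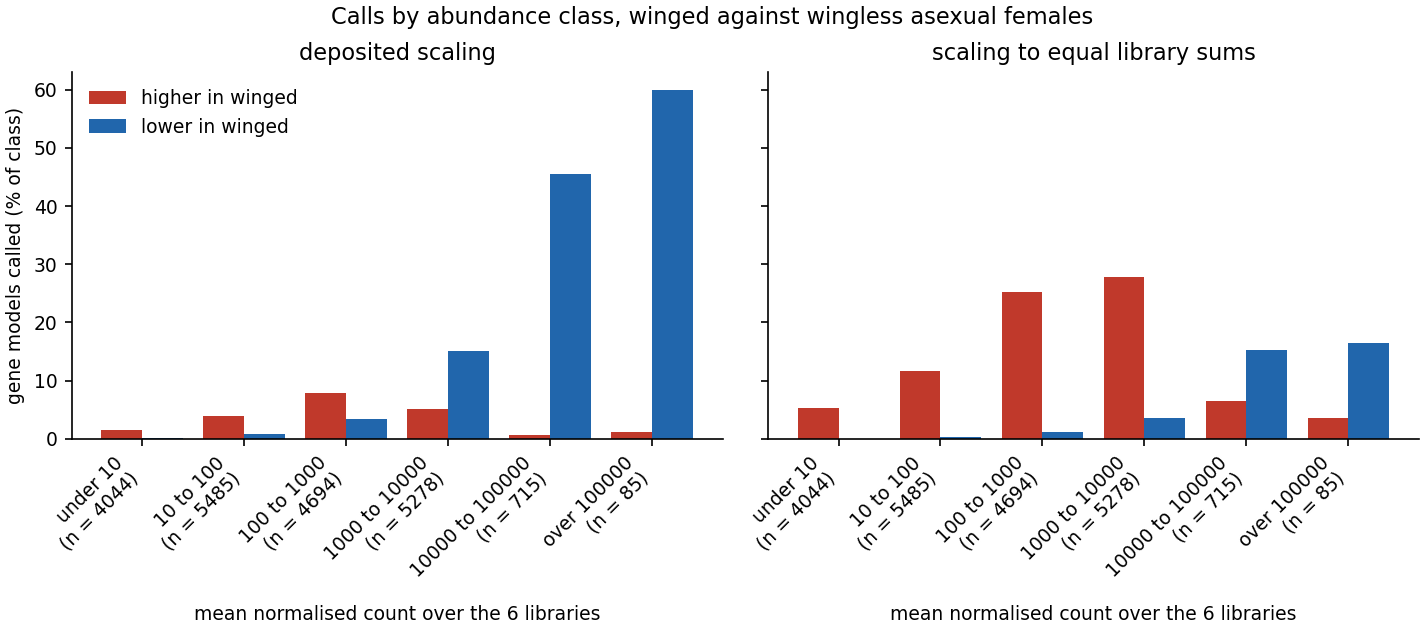
Bars give the percentage of gene models called higher (red) and lower (blue) in winged females in classes of mean normalised count over the 6 asexual female libraries, with the deposited scaling on the left and each library scaled to the same sum on the right. With the deposited scaling 45.5% of the class of 10000 to 100000 was lower, against 15.2% with equal sums, where the class of 1000 to 10000 had 27.8% higher and 3.51% lower.

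The lower level of the abundant class was seen in every clone. For the 715 gene models between 10000 and 100000, the median log2 ratio of winged to wingless was −1.11 in F1, −0.90 in I18 and −0.78 in BK11. For the 85 above 100000, the medians were −0.99, −0.92 and −0.97. With TMM scaling 8 of the 800 were higher and 327 lower. With edgeR these numbers were 8 and 268, and with DESeq2 8 and 411. When each library was divided by its own sum, 49 were higher and 123 lower, with a median of −0.22, and the median of the class between 1000 and 10000 turned to 0.43. Abundance was then taken instead from the 9 libraries of sexual females and males. Of 625 gene models over 10000 there, 212 (33.9%) were lower and 18 (2.88%) higher in winged females, with a median of −0.61. After division by the sum, the median of these 625 was 0.08, with 78 higher and 68 lower.

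The summed normalised counts, which depend on the deposited size factors, differed between the groups in the same direction. They add up the same values, so they are no separate support and do not measure the amount of RNA. Recovered reads overlapped between the groups, and division by the library sum makes the sums equal by construction. With the deposited scaling, the sums were 38013900, 36123200 and 40802000 in the winged libraries of F1, I18 and BK11. In the wingless ones they were 67263100, 56994100 and 62665100. The groups did not overlap, with means of 38313000 ± 2353720 (SD, n = 3) and 62307400 ± 5143840 (two-sided exact permutation p = 0.1, the smallest that 3 against 3 allows). Within clones, the wingless sum was 1.77 times the winged sum in F1, 1.58 times in I18 and 1.54 times in BK11. Gene models over 10000 held 66.5% of the wingless and 56.9% of the winged counts and supplied 81.8% of the difference, or 60.5% when abundance was taken from the 9 other libraries, and the 10 gene models with the largest losses supplied 10.8%, the top 100 44.6% and the top 500 78.8%. The 1384 lower gene models held 46.1% of the normalised counts of wingless females and 31.5% of those of winged females. The 922 higher ones held 1.03% in wingless and 3.82% in winged females.

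The gene models that lost and gained most in normalised counts, chosen after their values were seen, are given next. ACYPI000030-RA had the largest loss, from 602262, 495020 and 524378 in the wingless libraries of F1, I18 and BK11 to 189885, 183975 and 247020 in the winged ones. The groups were far apart, and the log2 fold change was −1.39 ± 0.19 (SE; limma adjusted p = 9.2e-04). Among 22 alternatives this call was lost in 1, the fit that left out clone F1. ACYPI081215-RA had the next largest loss, from 426917, 420484 and 386893 in wingless to 81055, 94943 and 99601 in winged females. The change was −2.17 ± 0.23 on the log2 scale (limma adjusted p = 3.0e-04), called in all 22 alternatives. ACYPI006679-RA had the largest gain, at 190416, 174773 and 99027 in winged against 68279, 83815 and 75792 in wingless females. Its winged value in BK11 was the lowest of the 3 and the closest to the wingless range, and the change of 0.98 ± 0.22 (limma adjusted p = 0.011) lost its call in 6 of 22 alternatives. ACYPI004091-RA came next, at 19742, 15568 and 82850 in winged against 2081, 2413 and 5086 in wingless females. Its BK11 winged value was the highest of the 3 by a wide margin, and the change was 3.32 ± 0.63 (limma adjusted p = 0.0054), lost in 2 of 22 alternatives.

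Some large differences were shared by all 3 clones. By the naming rule, these were the identifiers with the largest smallest within-clone ratio among called gene models with a mean of at least 100. ACYPI061655-RA stood at 1385, 582.2 and 2252 in the winged libraries of F1, I18 and BK11 and at 26.9, 31.7 and 9.89 in the wingless ones. ACYPI087228-RA stood at 1633, 750.7 and 2321 in winged and at 70.9, 59.5 and 40.4 in wingless females. Both were highest in BK11 and lowest in I18 among winged females, and whether the 2 gene models share reads was not tested. Their log2 fold changes were 5.83 ± 1.17 (limma adjusted p = 0.0071) and 4.65 ± 1.18 (limma adjusted p = 0.022), lost in 2 and 6 of 22 alternatives. In the other direction, ACYPI003765-RA was at 135.9, 165.1 and 567.5 in winged and at 32961, 8045 and 70696 in wingless females. ACYPI086947-RA was at 29.3, 0 and 9.24 in winged and at 2140, 654.8 and 1303 in wingless females. The I18 wingless library had the lowest wingless value of both. Their log2 fold changes were −6.82 ± 1.23 (limma adjusted p = 0.0039) and −7.50 ± 1.67 (limma adjusted p = 0.012), lost in 2 and 4 of 22 alternatives. With a winged library at 0, the size of the change of ACYPI086947-RA depended on the value added, and it was −6.58 with edgeR and −6.12 without the I18 winged library. Fully separated presence was rarer. At least 20 normalised counts in all winged libraries with at most 5.95 in all wingless ones was met by 14 gene models, and the reverse by 1. With at least 50 in place of 20 these numbers were 1 and 0.

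**Figure D3:**
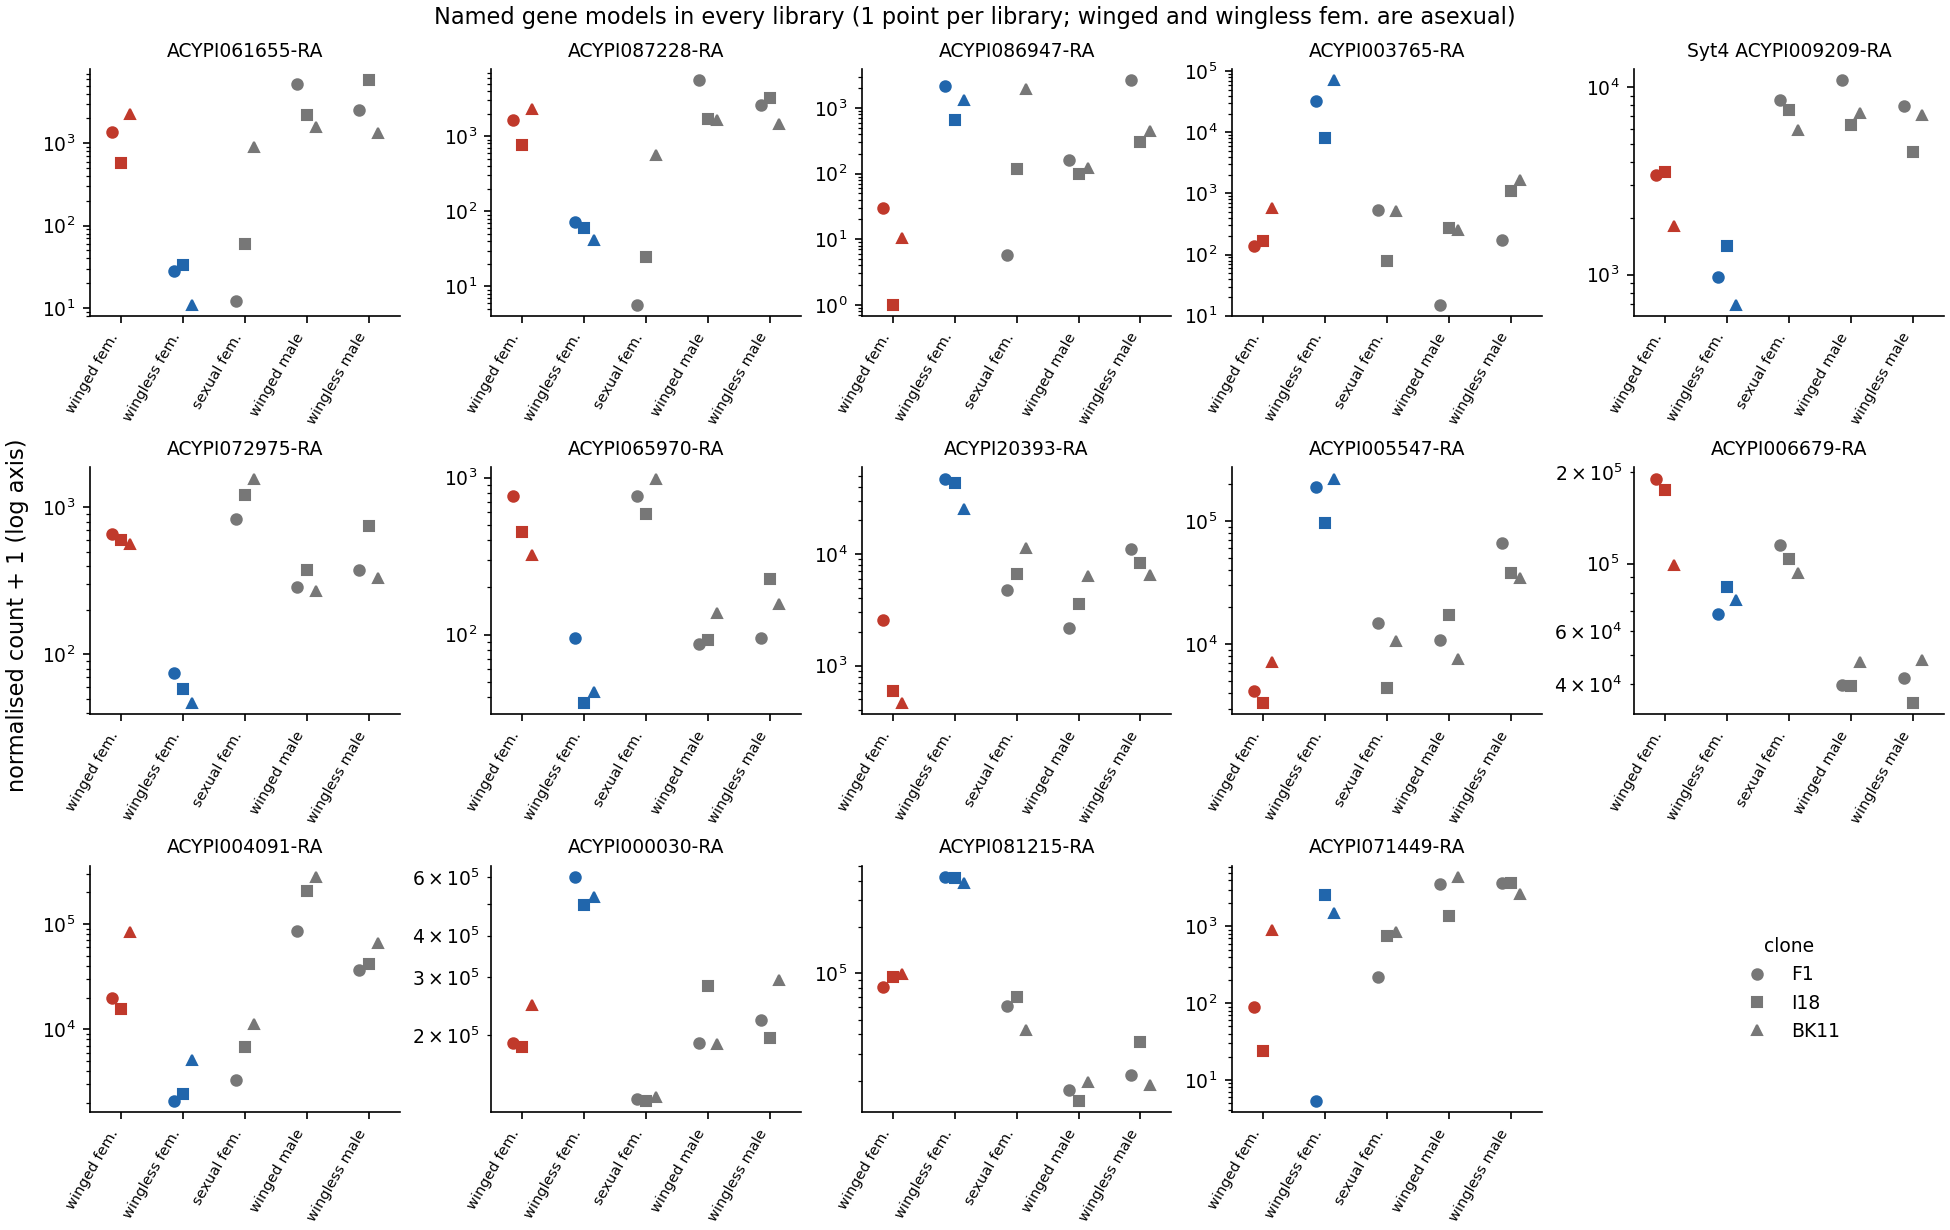
Each panel gives a named gene model, with its normalised count + 1 on a log axis in the 15 libraries grouped by morph; a point is 1 library, its shape is the clone, and red and blue mark winged and wingless asexual females. The red and blue points overlap for ACYPI071449-RA and for no other panel, as the choice of these gene models by their change largely fixes.

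Among the gene models called under all 22 alternatives, the 2 with the largest change in each direction, chosen after their values were seen, had winged and wingless values that did not overlap. ACYPI072975-RA was at 658.0, 597.2 and 559.3 in winged and at 74.2, 57.5 and 45.8 in wingless females, a log2 change of 3.36 ± 0.36 (limma adjusted p = 3.0e-04). ACYPI065970-RA was at 759.5, 450.4 and 319.6 against 93.5, 35.7 and 42.2, a change of 3.17 ± 0.47 (limma adjusted p = 0.0014). The clones lay close together for ACYPI072975-RA and further apart for ACYPI065970-RA, whose winged value was highest in F1. ACYPI20393-RA was at 2588, 588.0 and 463.6 in winged and at 47093, 43449 and 25152 in wingless females, with a change of −5.38 ± 0.58 (limma adjusted p = 3.0e-04). ACYPI005547-RA was at 4147, 3330 and 7163 in winged and at 190449, 96453 and 220634 in wingless females, with a change of −5.11 ± 0.47 (limma adjusted p = 2.2e-04). The F1 value of ACYPI20393-RA was the highest of its winged ones and still far below the lowest wingless value.

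Syt4 (ACYPI009209-RA), the 1 identifier with a gene name, was higher in winged females. Its name stands for synaptotagmin 4, a membrane protein of vesicles that is known in Drosophila from nerve and muscle cells. It stood at 3379, 3521 and 1819 in the winged libraries of F1, I18 and BK11 and at 964.3, 1411 and 688.4 in the wingless ones, with no overlap. The log2 fold change was 1.51 ± 0.34 (limma adjusted p = 0.012), with within-clone log2 ratios of 1.81, 1.32 and 1.40. The call was lost in 6 of 22 alternatives. Morphs outside the asexual females were higher still, with or without wings. Sexual females were at 5875 to 8556, winged males at 6256 to 10860 and wingless males at 4486 to 7942. Of the 61 matched identifiers, all tested, 3 (4.92%) were higher and 12 (19.7%) lower in winged females. The shares over all tested were 4.54% and 6.82%. The median log2 fold change of the 61 was −0.63, against 0 over all tested. The share of lower calls rose with abundance, and the 61 were not compared with gene models of like level.

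The clones shared some of the large differences and moved in opposite directions for others. Of 10772 gene models with a mean of at least 100 over the 6 libraries, 449 were at least 2-fold higher in winged females in all 3 clones and 980 at least 2-fold lower in all 3, while 294 were at least 2-fold higher in one clone and at least 2-fold lower in another. At 4-fold these numbers were 68, 109 and 68, and at 8-fold 11, 37 and 11. The shared counts asked for all 3 clones and the opposed ones for any 2, with the remaining clone free. The 2 kinds of count therefore cannot be set against each other as measures of agreement. The log2 ratios of the clones correlated across gene models with r of 0.58 for F1 and I18, 0.52 for F1 and BK11 and 0.42 for I18 and BK11, as a description, since gene models share libraries and depth. F1 had the most differences of 4-fold or more, 1159, against 663 in I18 and 591 in BK11. Among the 68 gene models with opposite 4-fold differences, the highest ratio belonged to BK11 in 54, and the lowest to F1 in 46 and to I18 in 20. Each clone supplied 1 library per morph, so differences between clones in the wing response have no replicate check.

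**Figure D4:**
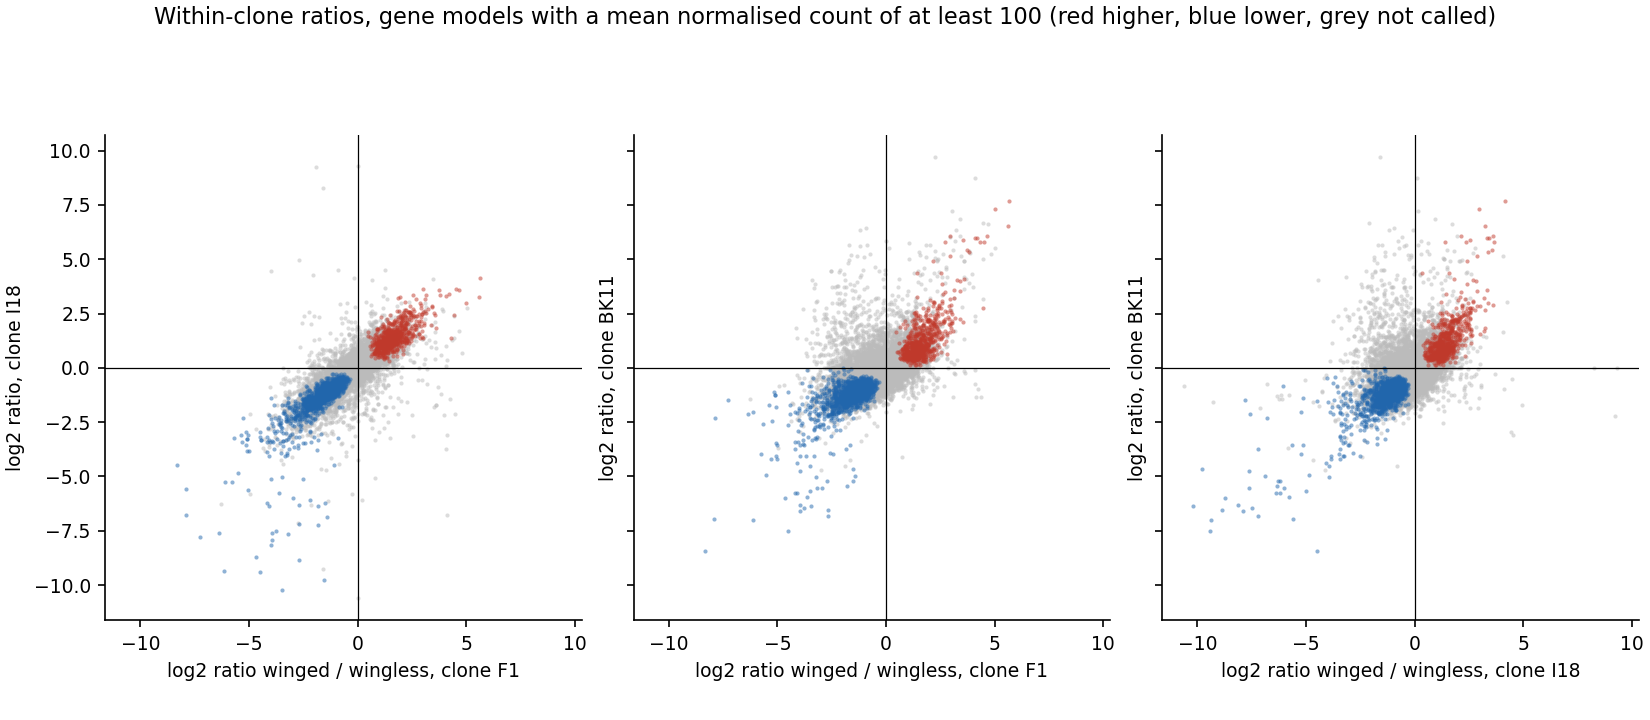
Log2 ratios of winged to wingless values within each clone, plotted for pairs of clones, with a point for each of the 10772 gene models with a mean of at least 100 over the 6 libraries. Called gene models lie in the 2 quadrants where both clones have the same sign, and 68 gene models changed by at least 4-fold in opposite directions in 2 clones.

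The largest such opposition, chosen after its values were seen, was ACYPI071449-RA. It was at 89.4 in winged and 4.30 in wingless females of F1, at 22.5 and 2580 in I18, and at 897.9 and 1487 in BK11. The log2 ratios were 4.09, −6.78 and −0.73, so the sign of the difference depended on the clone. Over the 3 clones the log2 fold change was −1.14 ± 1.83 (limma adjusted p = 0.79). In males the value was 1382 to 4441 in all 6 libraries.

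In the other morphs, the gene models that differed between asexual wing forms tended to stand nearer the winged level. The 922 higher ones had median normalised counts of 593.0 to 752.0 in winged and 225.2 to 237.1 in wingless asexual females. Sexual females, which are wingless, had medians of 905.6 to 1002. Winged males had 601.3 to 666.0, and wingless males had 613.6 to 636.7. The 1384 lower ones had medians of 2284 to 2841 in winged and 5346 to 7100 in wingless asexual females. Sexual females had 2667 to 3480, winged males had 1771 to 1942, and wingless males had 1934 to 2096. These ranges include the 4 libraries whose values raised doubt, namely the I18 and BK11 wingless males, the BK11 winged male and the BK11 sexual female. In both sets the wingless asexual libraries lay outside the range of the other 4 morphs, and their gap from the winged asexual ones is fixed by the choice of the sets. Sexual females also lay above the winged asexual range for the 922, and males lay below it for the 1384. Rearing conditions differed between asexual females and the rest, and cannot be told apart from morph in these levels. Over all gene models tested, the medians ran from 108.7 to 132.6 in the asexual libraries, from 63.7 to 94.4 in sexual females and from 154.9 to 244.3 in males.

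**Figure D5:**
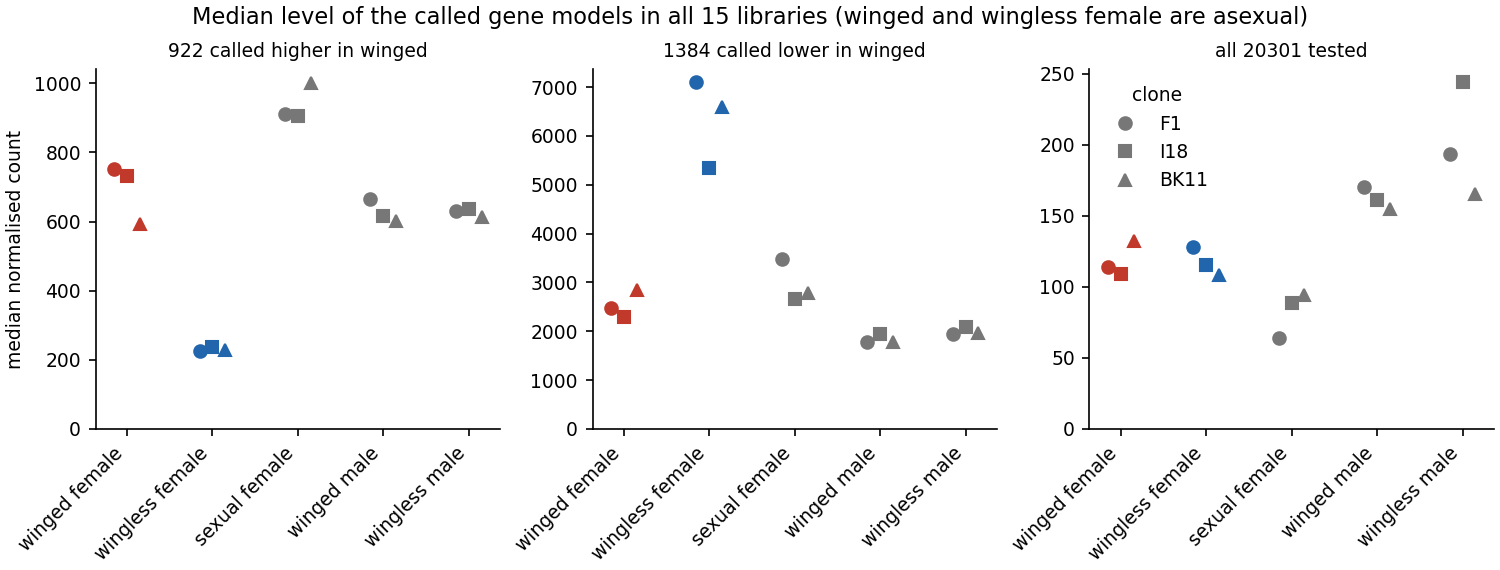
Median normalised count per library of the gene models called higher and lower in winged asexual females and of all gene models tested, on a linear axis from 0, with a point for each of the 15 libraries grouped by morph and the shape giving the clone. For the 922 higher gene models the wingless asexual females, at 225.2 to 237.1, lie below all other libraries, and for the 1384 lower ones, at 5346 to 7100, above them. The gap between wingless and winged asexual females is fixed by the choice of these gene models.

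Gene by gene, the mean log2 level of sexual females lay nearer the winged than the wingless asexual level for 70.8% of the 922 and 71.7% of the 1384, against 58.7% of all gene models tested. For winged males these shares were 76.5% and 80.4%, against 63.2%. For wingless males they were 78.3% and 79.0%, again against 63.2%. All 3 morphs were nearer the winged level for 49.8% of the higher and 58.1% of the lower gene models, against 35.5% of all tested. With division by the sum, the last shares were 57.2%, 53.9% and 35.8%. No test was made of these shares, which all use the same asexual libraries. The means of the other morphs include the 4 libraries whose values raised doubt, and no share without them is given.

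Wingless males against sexual females is a comparison that shares no library with the asexual females, and its calls for the 2 sets were counted. Both comparisons came from the same fit, with a spread estimated over all 15 libraries, so these calls are not independent of the choice of the sets. The I18 and BK11 wingless males and the BK11 sexual female, whose values raised doubt, are part of this comparison, and no count without them is given. Of all gene models tested, 32.0% were higher and 26.8% lower in wingless males than in sexual females. Of the 922, 30.3% were higher and 41.1% lower, and of the 1384, 21.2% were higher and 45.7% lower. Abundant gene models were more often lower in these males, so the shares are also given within classes of level. Between 1000 and 10000 the shares lower were 55.0% of the 922 that fell there and 49.1% of the 1384, against 52.7% of all tested in that class. Between 10 and 100 the higher set ran the other way, with 51.4% higher and 12.4% lower, against 33.7% and 9.23% of all tested. Between 100 and 1000, 52.6% of the higher set were lower in wingless males, against 32.9% of all tested, and against 23.6% of the lower set. The 279 and 379 of the 922 made up 4.29% of the higher and 6.97% of the lower male calls, and the 294 and 632 of the 1384 made up 4.52% and 11.6%.

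The wing difference in males was measured on other libraries but in the same fit, with a shared spread. It was set beside that of asexual females for the named gene models, and the difference of the 2 wing effects was tested directly. This difference was called for 1.87% of all gene models tested (limma, adjusted p threshold 0.05). It was called for all 4 of ACYPI072975-RA, ACYPI065970-RA, ACYPI20393-RA and ACYPI005547-RA, for which the size of the female change, a part of this difference, had been used in the choice. ACYPI072975-RA was at 285.9, 376.4 and 269.1 in winged and at 373.7, 746.1 and 329.4 in wingless males, so its male log2 fold change was −0.55 ± 0.36 and its difference from females −3.91 ± 0.51 (limma adjusted p = 0.0077). ACYPI005547-RA was at 10862, 17129 and 7618 in winged and at 66820, 37726 and 34342 in wingless males. Its male change was −1.98 ± 0.47 (limma adjusted p = 0.14), in the same direction as in females, and the difference was 3.13 ± 0.67 (limma adjusted p = 0.037). It was also called for ACYPI000030-RA and ACYPI081215-RA, chosen for their loss in females, so the same limit holds for them. None of these 6 calls held when any whole clone, or the 4 libraries whose values raised doubt, were left out. The difference missed the threshold for ACYPI061655-RA, at −5.87 ± 1.66 (limma adjusted p = 0.089), and for Syt4, at −1.18 ± 0.48 (limma adjusted p = 0.23). ACYPI061655-RA was at 5286, 2201 and 1563 in winged and 2558, 5796 and 1326 in wingless males, all far above the wingless asexual values.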

How the data were processed

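RNA was measured by Illumina sequencing of whole bodies, per the labels' protocols. For 20657 gene models the authors deposited a signal, which is the count after division by a library size factor, with no scaling for length. The submitters' processing notes name DESeq2 and no version of it. Not given in the sources used here: aligner, counter, strand setting, genome build and annotation. All deposited values (100%) lay within 0.001 of a whole number of reads, so whole reads were recovered and tested with edgeR 4.0.16, which called 1183 higher and 992 lower, and with DESeq2 1.42.0.

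The planned test assumed normalised values. Log2(value + 1) was fitted with limma 3.58.1 in R 4.3.3, with a mean-dependent prior variance, on 15 libraries with 5 morph means (residual degrees of freedom, 10). The filter asked for a value of 10 or more in 3 or more libraries, and 20301 gene models passed while 356 did not. Fold changes of gene models with values near 0 depend on the 1 added. The Benjamini-Hochberg adjustment ran over all gene models tested, at a threshold of 0.05. The limits of a count of 0 cover counting error only.

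Libraries were paired by clone, which the labels give as the genotype. Deviations from the morph means correlated between winged and wingless libraries of the same clone with r of 0.64 in F1, 0.53 in I18 and 0.59 in BK11, and of different clones with −0.40 to −0.20.

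The members and lists were chosen with earlier results of these data known. The naming rule took identifiers with a gene name that passed the threshold, and 2 without a name in each direction, with non-overlapping groups, a mean of at least 100 over the 6 libraries and the largest smallest within-clone log2 ratio. All other named gene models were chosen after their values were seen, as stated. Names alone were taken from the reference gene table (assembly pea_aphid_22Mar2018_4r6ur_v2). The 14 planned lists of product names were not applied, since the tables used hold no product names for these identifiers. Sequences and positions were not used here. Of the 22 alternatives, division by the library sum and the fit without 4 libraries whose values raised doubt (I18 and BK11 wingless males, BK11 winged male, BK11 sexual female) were chosen after seeing the data, as were the counts by abundance class.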

Additional observations from a re-analysis of the deposited data

Results flagged for a closer look

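The wing difference of 6 named gene models differed between males and asexual females by the test of that difference, given as the male minus the female log2 fold change (limma, adjusted over all gene models tested). All 6 were chosen for large changes in females, which form part of the difference, so its size and its p are not independent of the choice. All 6 calls were lost without any one of the 3 clones and without the 4 doubted libraries. For ACYPI072975-RA the difference was −3.91 ± 0.51 (limma adjusted p = 0.0077), lost in 4 of 20 alternatives, and for ACYPI065970-RA it was −3.71 ± 0.67 (limma adjusted p = 0.022), lost in 7. For ACYPI20393-RA it was 4.18 ± 0.81 (limma adjusted p = 0.027), lost in 8, and for ACYPI005547-RA 3.13 ± 0.67 (limma adjusted p = 0.037), lost in 9. For ACYPI081215-RA it was 1.65 ± 0.33 (limma adjusted p = 0.028), and for ACYPI000030-RA 1.27 ± 0.26 (limma adjusted p = 0.032), each lost in 10. The male change missed the threshold in all 6, with the smallest limma adjusted p at 0.14. Males and asexual females also differed in rearing, which cannot be told apart from sex in these differences.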

How the results depend on the processing

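The counts of higher and lower calls, 922 and 1384, stayed within 1.5 times under other pseudocounts, filters, prior, TMM scaling (1230 and 1142), edgeR (1183 and 992), the replicate block with 15 libraries (1068 and 1618), the 6 asexual libraries alone (681 and 1434) and without the 4 doubted libraries (709 and 1191). They moved further with the replicate block in the 6 libraries (1704 and 2899) and with division by the library sum (3551 and 377). DESeq2 gave 1653 higher. Leaving out single libraries or clones gave 39 to 1236 higher and 132 to 1612 lower, lowest without clone F1. Those fits hold fewer samples; the causes of the other shifts were not tested. The winged to wingless ratio of summed counts, 0.615, kept its direction in the 8 alternatives run. Division by the library sum would remove this difference by construction. Of 308 log2 fold changes of named gene models under alternatives, 275 kept their direction and stayed called or not called as in the main fit, and 29 lost the call. The 308 include those of ACYPI071449-RA, which was not called in the main fit. The sign turned 4 times, each for ACYPI071449-RA, at 0.06, 0.48 and 0.09 without the I18 winged, I18 wingless and BK11 wingless library and 1.68 without clone I18. In these fits the male minus the female wing effect was −0.29, −0.71, −0.31 and −1.32. Over all fits that left out a library or clone, the female log2 fold change of ACYPI071449-RA ran from −3.98 to 1.68. Its male minus female wing effect ran from −1.32 to 3.76. The block changed no call of a named gene model. With 1 library per clone and morph, small differences stay undetectable in low gene models.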
